A study of Rattus norvegicus with 6 samples.

Results

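Long noncoding RNAs (lncRNAs) of the liver were compared with those of the adrenal gland in the Brown Norway rat (BN), an inbred strain. Both tissues came from male rats aged 6 weeks, for which the labels name no treatment, and the adrenal sample is labelled "adrenal glandin". The labels name 1 sample for each of 6 tissues, the others being cortex (no organ is named), outer medulla, left ventricle and hypothalamus. The deposited table gives 2 columns of FPKM (fragments scaled by transcript length and library total) for each tissue, so 4 of its 12 columns enter the main comparison. The columns of a tissue are called column 1 and column 2, and pairs of values are printed in that order. Whether these stem from different animals is not stated. A p-value here therefore sets a difference against the spread of columns, and that spread may be technical.

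Membership did not depend on level, but testing did. All 2455 transcripts with values, at 1646 loci, were members, and 721 of them at 576 loci reached a mean of 1 FPKM in liver or in adrenal gland and were tested. A reference gene was named for 733 of the 2455, for 189 of them as antisense to an exon, and for 1722 none was named. The table holds lncRNAs only, so no messenger RNA of any enzyme was measured here. A transcript that overlaps a gene can share fragments with it, and no source used here gives the strand setting of the quantification, so fragments of a gene and of its antisense partner cannot be told apart.

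The liver and the adrenal gland handle steroids at opposite ends of their life. Cells of the adrenal cortex import cholesterol and turn it into corticosteroids with cytochrome P450 enzymes, among them those of the CYP11B family, while chromaffin cells of the adrenal medulla make catecholamines. Hepatocytes reduce and conjugate circulating steroids, with the aldo-keto reductases among the enzymes involved, and turn cholesterol into bile acids. Many lncRNAs are made in few tissues, and in bulk samples such as these, fewer cells of a type and less RNA per cell cannot be told apart.

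The columns differed in depth and in how alike they were. Steps between low FPKM values implied 12080000 and 3870000 fragments in liver and 13510000 and 17520000 in adrenal gland, within a range of 3870000 to 31850000 over all columns. A transcript of 1 kb at the level of 3 fragments would thus be listed at 0.248 and 0.775 FPKM in liver and at 0.222 and 0.171 FPKM in adrenal gland, and these limits cover counting error only. On the log2 scale, Pearson's r over 1812 transcripts was 0.734 between the liver columns and 0.849 between the adrenal columns. Of 473 transcripts with a liver mean of 1 FPKM or more, 100 differed by 4-fold or more between the liver columns, with column 2 the higher in 51 and column 1 in 49. In adrenal gland this was so for 30 of 404 transcripts. Adrenal gland correlated more closely with hypothalamus (r = 0.622) than with liver (r = 0.232). The pair of liver and adrenal gland ranked 12 of 15 pairs of tissues, as a description of transcripts that share libraries and depth. The hypothalamus columns carry a code that was matched by elimination, so each value given for hypothalamus rests on that match.

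The comparison across all transcripts gave lncRNAs higher in each tissue. Of 721 transcripts, 468 (64.9%) passed limma's moderated test on log2(FPKM + 0.1) at a Benjamini-Hochberg adjusted p under 0.05. In liver 258 (35.8%) were higher, at 210 loci, and in adrenal gland 210 (29.1%) were higher, at 177 loci. These shares are set in part by the minimum level: 565 of the 721 reached 1 FPKM in 1 of the tissues and not in the other, so that a difference was largely given, and they hold 421 of the 468. Of the 156 that reached it in both, 47 (30.1%) passed. With no minimum, 627 of 2201 (28.5%) passed, and there more were higher in adrenal gland (344) than in liver (283). For all 468, both columns of one tissue lay above both columns of the other, which was also the case for 560 of all 721. The median difference over all tested transcripts was -0.43, as adrenal gland minus liver on the log2 scale. The median was -4.06 among those higher in liver and 3.65 among those higher in adrenal gland. Many of them were listed at 0 in the other tissue, in both columns for 85 liver and 62 adrenal transcripts, and a fold against such a 0 is set by the added 0.1. Without these the medians were -3.59 (n = 173) and 3.32 (n = 148).

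**Figure D1:**
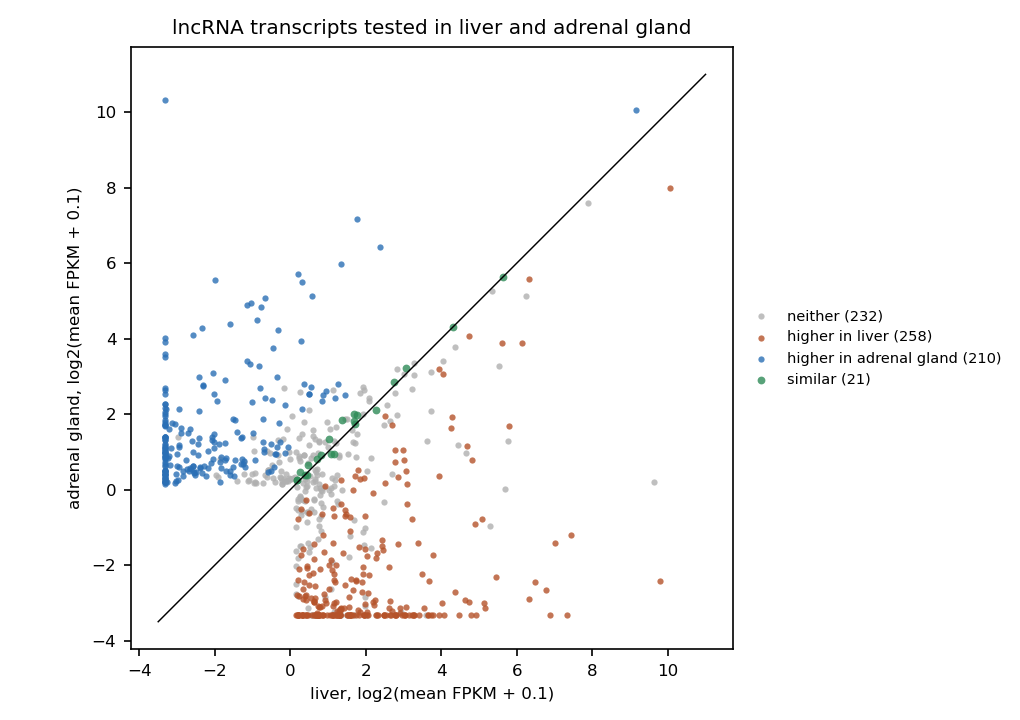
Mean FPKM of each of the 721 tested transcripts in liver (x axis) and adrenal gland (y axis), both as log2(mean FPKM + 0.1), coloured by the outcome of the test; the diagonal marks equal levels. Points stacked at the left and lower edges are transcripts listed at 0 in 1 tissue, and the 21 similar transcripts lie along the diagonal.

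Each tissue also had a set of transcripts that stood under the level set for detection in the other. With detection set at a mean of 0.5 FPKM, 310 transcripts were detected in both tissues, 375 in liver and not in adrenal gland, and 343 in adrenal gland and not in liver. The shared ones were 45.3% of the 685 detected in liver and 47.5% of the 653 detected in adrenal gland. This count depends on the level chosen: it was 759 at 0.1 FPKM and 156 at 1 FPKM, and 191 when both columns had to reach 0.5 FPKM. Which tissue had more transcripts of its own turned as well: 400 for liver and 488 for adrenal gland at 0.1 FPKM, and 243 and 470 above 0. The numbers were 281 and 326 with both columns, and 335 and 383 without liver column 1. In liver column 2, 0.5 FPKM lies under the limit of 3 fragments for a transcript of 1 kb (0.775 FPKM), so absence from liver is uncertain.

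The transcripts higher in liver were mostly highest there among all 6 tissues. Liver had the highest mean for 230 of the 258, left ventricle for 9, cortex for 11 and outer medulla for 8. By the same fit, 168 of the 258 were also higher in liver than in each of the other 4 tissues. Adrenal gland had the highest mean for 181 of its 210 transcripts, hypothalamus for 9, outer medulla and left ventricle for 7 each and cortex for 6. Here 112 of 210 were also above each of the other 4. Each set was chosen for a higher level in its own tissue, and the same columns were used again here. A high share with that tissue on top, or above the other 4, was thus given in part by the choice. How often liver or adrenal gland was highest among all tested transcripts was not counted. For 33 of the 210 the hypothalamus mean was at least 0.5 of the adrenal mean. Adrenal column 2 was above column 1 in 14 of these 33 and in 42 of the other 177, and the part of hypothalamus in these values was not tested. Without adrenal column 2 and hypothalamus column 1, an alternative chosen after seeing the data, 400 transcripts passed, 373 of them also among the 468.

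The lncRNAs at genes of steroid and bile acid handling were few. The list of 39 genes and gene families matched 4 transcripts, all tested. Of these, 3 were higher in liver and 1 in adrenal gland, against 35.8% and 29.1% of all tested transcripts, and the median difference was -6.49 against -0.43 over all 721. The 3 liver transcripts entered the test through liver alone, with adrenal means under 1 FPKM. A difference was thus largely given for them, also in the median, and the rule for similar levels could not apply to them.

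The most abundant of these lay antisense to Akr1c19, a gene of the aldo-keto reductase 1C family, whose enzymes reduce ketosteroids. This transcript, TCONS_00047225 (chr17:71324693-71393480 on rn5, 1604 bases), stood at 42.3 and 137 FPKM in liver and at 0.0506 and 0.117 FPKM in adrenal gland. It was lower in adrenal gland by a log2 difference of -8.72 (SE 0.70, limma adjusted p = 1.5e-05). Its neighbour TCONS_00047227, listed with the same interval and antisense to Akr1c12 of the same family, stood at 5.79 and 43.8 FPKM in liver and at 0.0465 and 0.0178 FPKM in adrenal gland. The difference was -6.94 (SE 0.81, limma adjusted p = 0.00011). For both, liver column 2 was the higher liver column, and even the lower liver column was far above every adrenal column. The genes of this family are near-identical in places, and no source used here says how fragments were divided between them.

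A transcript antisense to Slc27a5, the bile acyl-CoA synthetase that prepares bile acids for conjugation, was also a liver transcript of this list. TCONS_00008160 (chr1:66385127-66398417, 1802 bases) stood at 8.41 and 4.97 FPKM in liver and was listed at 0 in both adrenal columns (limma adjusted p = 5.2e-06). Its highest mean in another tissue was 0.207 FPKM, in left ventricle.

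The adrenal transcript of the list overlapped Cyp11b3, of the CYP11B family that carries out the last steps of corticosteroid synthesis. TCONS_00098844 (chr7:115976559-116157978, 260 bases) stood at 60.5 and 44.4 FPKM in adrenal gland and at 0 and 2.10 FPKM in liver. The liver value of 2.10 FPKM corresponds to at most 2.1 fragments at the implied depth. The difference was 6.79 (SE 1.31, limma adjusted p = 0.0018). Listed with the same interval was TCONS_00098852, assigned as antisense to Timm8a1, a gene for a mitochondrial import chaperone. It stood at 51.4 and 41.6 FPKM in adrenal gland and at 0 and 0.306 FPKM in liver, a difference of 7.85 (SE 1.04, limma adjusted p = 0.00021). Hypothalamus was next for both, at means of 3.55 and 3.36 FPKM.

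Transcripts at hepatocyte genes did not all follow the tissue of their gene. The list of 22 genes matched 4 transcripts, of which 3 were higher in liver and 1 in adrenal gland, against 35.8% and 29.1% of all tested transcripts. Each of them entered the test through the tissue where it was higher. The one at MBL2, the gene of mannose-binding lectin, a plasma protein of innate immunity, was TCONS_00006231 (chr1:255674112-255980435). It stood at 13.1 and 11.7 FPKM in liver and was listed at 0 in both adrenal columns (limma adjusted p = 1.5e-05). The one antisense to Afp, which encodes alpha-fetoprotein of the fetal liver, was TCONS_00032321 (chr14:19045306-19067264) at 1.41 and 0.679 FPKM in liver and 0 in both adrenal columns (limma adjusted p = 8.7e-05). Liver column 2 is worth at most 2.4 fragments for it. The Slc27a5 transcript above belongs to this list too.

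The transcript that overlaps Fga, the gene of the fibrinogen alpha chain of plasma, went the other way. TCONS_00056419 (chr2:201289081-201454615, 1811 bases) stood at 1.42 and 1.16 FPKM in adrenal gland and was listed at 0 in both liver columns (limma adjusted p = 0.00012). The other tissues had means from 0.125 to 0.683 FPKM, so liver was the lowest of the 6 tissues.

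For these genes the bases before the start of the reference gene are shown, since their lncRNAs went in opposite directions although both genes are known for the liver. These are promoters of the reference genes from RefSeq on GRCr8, not of the lncRNAs, whose own starts were not used here. Each line gives the 250 bases before the start, 5′ to 3′ on the strand of the gene. Capitals mark GTTAAT or its reverse complement ATTAAC, the half-site of the liver transcription factor HNF1, searched on both strands. For Fga the first of 2 entries was taken.
Afp, chr14:17875646-17875895, minus strand: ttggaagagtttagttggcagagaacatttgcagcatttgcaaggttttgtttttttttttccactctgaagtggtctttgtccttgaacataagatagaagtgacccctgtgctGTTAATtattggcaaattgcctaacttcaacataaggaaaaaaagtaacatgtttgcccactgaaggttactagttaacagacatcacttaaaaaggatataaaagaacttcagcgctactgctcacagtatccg
Fga, chr2:170671919-170672168, plus strand: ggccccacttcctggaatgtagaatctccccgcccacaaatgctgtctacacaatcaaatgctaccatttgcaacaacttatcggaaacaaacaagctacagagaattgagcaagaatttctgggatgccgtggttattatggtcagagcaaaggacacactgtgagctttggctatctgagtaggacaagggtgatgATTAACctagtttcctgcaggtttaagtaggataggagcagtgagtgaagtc
Each window held 1 exact match, which began 135 bases before the start in Afp and 52 bases before it in Fga, on the opposite strand. Forms of the half-site that differ in a base were not searched, so this is not a count of all HNF1 sites. Of all 33469 windows of this length in the table, 2160 (6.45%) held a match.

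Lists of other cell types gave little. The adrenal cortex list of 11 genes matched the Cyp11b3 transcript and no other, and the lists for chromaffin cells, blood and immune cells and endothelium matched 0 transcripts. Of the 5 transcripts at neuronal genes (4 at Sox2 and 1 at Dlx6), none reached the level for testing, and the highest of them in adrenal gland, TCONS_00055701 at Sox2, stood at 0 and 0.891 FPKM in adrenal gland and 0 and 0.176 FPKM in liver. A transcript sharing a splice junction with Myl1, a myosin light chain of skeletal muscle, stood at 34.7 and 32.4 FPKM in adrenal gland and at 0 and 1.05 FPKM in liver (6.63, SE 1.17, limma adjusted p = 0.0011). This transcript, TCONS_00107388, had a mean of 34.3 FPKM in cortex and 19.7 FPKM in left ventricle. The kidney list matched 1 transcript, at Slc12a1, which was not tested (1.5 and 0.146 FPKM in adrenal gland, 0 and 1.32 FPKM in liver).

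**Figure D2:**
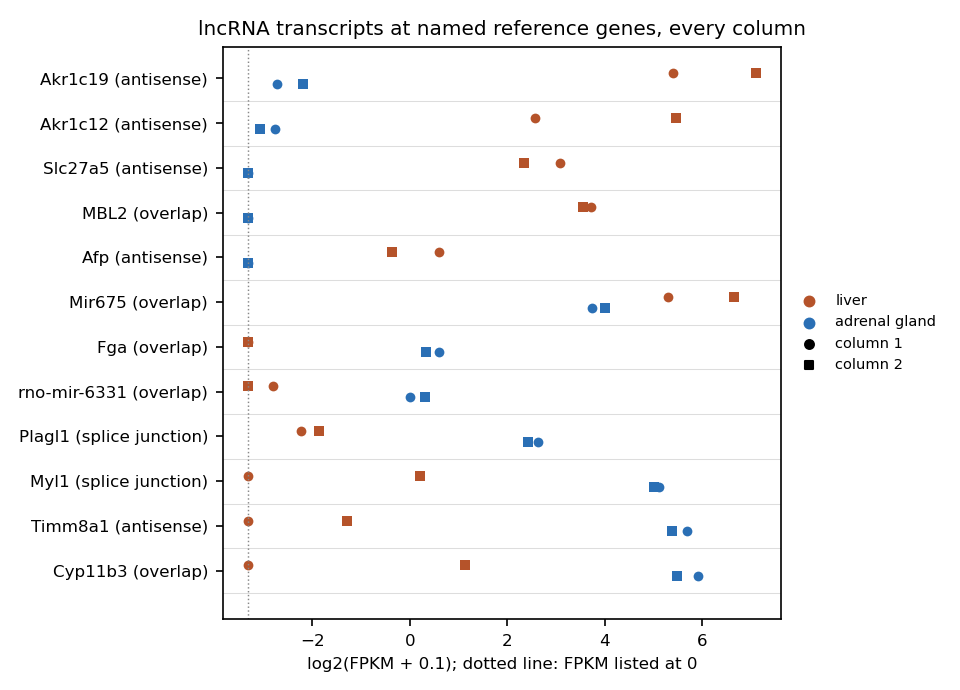
FPKM as log2(FPKM + 0.1) in every liver and adrenal gland column for 12 transcripts at named genes, with circles for column 1 and squares for column 2; the dotted line marks a listed 0. Liver is higher in the upper 6 and adrenal gland in the lower 6. All 12 are called transcripts, and the columns of the tissues lay apart in all 468 of these and in 560 of all 721 tested. Members of the lists without a call are not shown.

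Transcripts at known noncoding genes were mixed. This list matched 83 transcripts at 28 genes, and 13 were tested. Of the 13, 2 were higher in liver, 3 in adrenal gland and 8 passed in neither direction. Over all tested transcripts 35.8% were higher in liver and 29.1% in adrenal gland. The median difference was -0.37, near the -0.43 over all. Of the 13, the transcript at Plagl1 lies at a gene that also codes for a protein. MicroRNAs silence messenger RNAs that pair with their seed, bases 2 to 8. Mature microRNAs of Mir675, Mir365, rno-mir-6331 and the let-7c, miR-29b and Mir223 genes are shown from RefSeq with the seed in capitals. The FPKM of a long transcript at such a gene is not the level of the mature microRNA.
rno-miR-675-5p: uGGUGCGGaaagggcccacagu
rno-miR-675-3p: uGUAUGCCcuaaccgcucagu
rno-miR-365-3p: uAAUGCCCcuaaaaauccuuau
rno-miR-6331: cUUUGGUGgcuuaguucuuugugc
rno-let-7c-5p: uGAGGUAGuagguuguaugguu
rno-miR-29b-3p: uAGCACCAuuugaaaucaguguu
rno-miR-223-3p: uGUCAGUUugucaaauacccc
All 7 seeds differ from each other, and the table gives let-7c-5p and miR-29b-3p from 2 hairpins each.

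The transcript that overlaps Mir675 was abundant in both tissues and higher in liver. Mir675 lies within H19, the imprinted lncRNA that is high in fetal and newborn tissues. TCONS_00012142 (chr1:222639220-222642054, 2311 bases) stood at 39.2 and 100 FPKM in liver and at 13.3 and 16.1 FPKM in adrenal gland, a difference of -2.10 (SE 0.52, limma adjusted p = 0.007). Cortex (14.3 and 17.8 FPKM) and left ventricle (8.45 and 18.4 FPKM) lay near the adrenal values, while outer medulla and hypothalamus had means of 0.247 and 0.956 FPKM. The call was lost when the 4 liver and adrenal columns were fitted alone and when adrenal column 2 and hypothalamus column 1 were left out. A transcript antisense to Mir365, TCONS_00015922, stood at 0.915 and 1.37 FPKM in liver, at most 4.7 and 2.3 fragments, and was listed at 0 in adrenal gland (limma adjusted p = 0.0015). Its means in cortex (3.04 FPKM) and outer medulla (2.38 FPKM) were above that in liver (1.14 FPKM).

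Of the adrenal transcripts of this list, the largest in level was at Plagl1, an imprinted gene for a zinc finger transcription factor. TCONS_00000085 (chr1:8856930-8897146) stood at 6.12 and 5.30 FPKM in adrenal gland and 0.113 and 0.176 FPKM in liver (4.58, SE 0.37, limma adjusted p = 1.6e-05). It was also above each of the other 4 tissues. The other adrenal transcripts, at rno-mir-6331 and rno-mir-679, are listed with a single interval (chr6:143006931-143062780). TCONS_00090724, at rno-mir-6331, stood at 0.906 and 1.14 FPKM in adrenal gland and at 0.0425 and 0 FPKM in liver (3.23, limma adjusted p = 6.1e-05). TCONS_00090695, at rno-mir-679, stood at 0.895 and 1.30 FPKM in adrenal gland and was listed at 0 in liver (limma adjusted p = 2.2e-05). Hypothalamus was close to adrenal gland for this pair, with means of 0.751 and 1.21 FPKM, and the remaining tissues were at 0.0676 FPKM or less.

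The 8 others gave no call. Mir223, whose microRNA is known from myeloid cells, had a transcript at 0.829 and 1.2 FPKM in liver and 1.11 and 1.02 FPKM in adrenal gland (TCONS_00111306). Its difference of 0.09 had a 95% interval from -1.99 to 2.16, too wide to call the levels alike. TCONS_00030100 at Mir29b-2 differed by -0.37 (interval -1.13 to 0.38), with 1.13 and 1.84 FPKM in liver and 1.37 and 0.869 FPKM in adrenal gland. For TCONS_00021769, antisense to Mir3588, liver column 2 was at 24.0 FPKM and liver column 1 at 0 (limma adjusted p = 0.12). The transcripts at Mir29b-1, at both let-7c genes and at rno-mir-6326 (2 transcripts) make up the rest, with adjusted p from 0.15 to 0.52. Calls appeared for some of these when a column was left out. Without liver column 1, TCONS_00021769 (-7.91, limma adjusted p = 2.8e-05) and TCONS_00078268 at Mir29b-1 (-4.70, limma adjusted p = 0.00064) passed. Without adrenal column 1, the transcripts at rno-mir-6326 passed in opposite directions, TCONS_00015815 at -5.45 (limma adjusted p = 0.014) and TCONS_00015816 at 4.75 (limma adjusted p = 0.0083). With the 4 columns alone, TCONS_00095929 at Mirlet7c-2 passed (1.65, limma adjusted p = 0.035).

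Among the largest differences were transcripts with no reference gene. The largest difference on the liver side was that of TCONS_00058886 (chr2:74647872-74659763, 470 bases), at 543 and 1217 FPKM in liver and 0 and 0.172 FPKM in adrenal gland (-12.27, SE 0.72, limma adjusted p = 5.9e-06). Left ventricle followed with a mean of 7.40 FPKM. TCONS_00013763 (chr1:281545041-281548927) stood at 75.4 and 161 FPKM in liver and was listed at 0 in both adrenal columns (limma adjusted p = 0.00018). A transcript at Glyat, whose enzyme conjugates acyl groups with glycine in liver and kidney mitochondria, was TCONS_00005817 (chr1:236219825-236241073). It stood at 51.8 and 208 FPKM in liver and 0.438 and 0.109 FPKM in adrenal gland (-8.27, SE 0.69, limma adjusted p = 1.8e-05). It was also high in cortex, at 43.5 and 42.3 FPKM. The next in size had no reference gene: TCONS_00061221, TCONS_00072312, TCONS_00086818 and TCONS_00049879, with liver values from 17.9 to 45.8 FPKM over both columns. The last of these is 207 bases long and worth at most 17.0 fragments in liver column 2.

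On the adrenal side the highest level was that of TCONS_00032703 (chr14:46814997-46864150, 653 bases), which overlaps ENSRNOG00000049138. It stood at 1256 and 1302 FPKM in adrenal gland and was listed at 0 in both liver columns (limma adjusted p = 0.012). Cortex had 3416 FPKM in column 1 and 0 in column 2. The call was lost without liver column 2, adrenal column 1 or adrenal column 2. TCONS_00074459 (chr4:61625469-61626957, 325 bases) stood at 17.0 and 15.0 FPKM in adrenal gland and was listed at 0 in liver (limma adjusted p = 1.4e-05), with 0.147 FPKM as its highest mean elsewhere. TCONS_00026459 on chromosome 12 was at 11.5 and 11.3 FPKM in adrenal gland and listed at 0 in liver (limma adjusted p = 0.0002). TCONS_00106384, TCONS_00106378 and TCONS_00074679 were also among the largest, with 9.91 to 21.1 FPKM in adrenal gland and at most 0.197 FPKM in liver. Their hypothalamus means were 4.79, 4.44 and 8.45 FPKM.

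**Figure D3:**
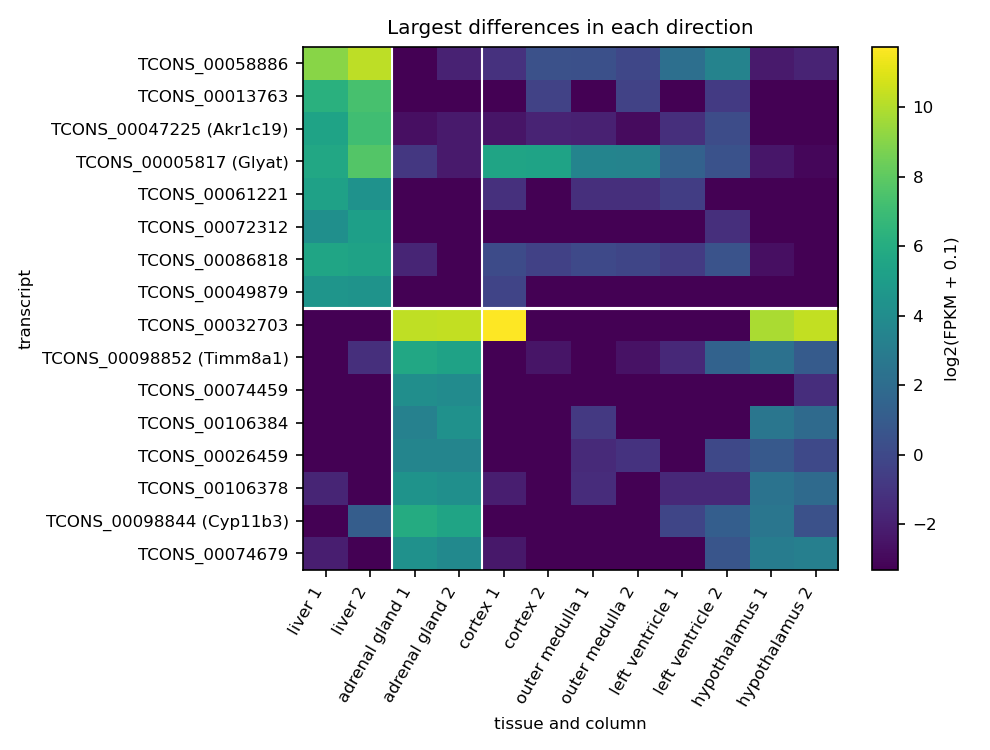
Colour shows log2(FPKM + 0.1) in all 12 columns for the 8 largest differences in each direction, 1 transcript per locus, with liver-high transcripts above the white line and adrenal-high ones below it. TCONS_00005817 (Glyat) is also high in both cortex columns, and several adrenal transcripts have intermediate values in hypothalamus.

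Neighbouring transcripts were then taken by deposited interval. Of 34 deposited intervals with 3 or more tested transcripts, 5 held only transcripts higher in liver and 7 only transcripts higher in adrenal gland. Transcripts of an interval can be isoforms that share exons and fragments, so they are not independent. The intervals described here were chosen for naming after their values were seen. Of all tested transcripts, 29.1% were higher in adrenal gland. On chromosome 9, 11 of 14 transcripts at 12 loci within chr9:11060508-11560435 were higher in adrenal gland, with a median difference of 4.54. A second interval there (chr9:7319662-7502218) held 6 transcripts assigned to RGD1564665, of which 5 were higher in adrenal gland. One of them, TCONS_00106162, stood at 19.4 and 18.1 FPKM in adrenal gland and 0.103 and 1.29 FPKM in liver. On chromosome 7, all 4 tested transcripts of the interval of Zfp347, a zinc finger gene (chr7:9865669-10274413), were higher in adrenal gland. TCONS_00096637 there had 86.9 and 83.6 FPKM in adrenal gland and 3.13 and 7.03 FPKM in liver (4.15, SE 0.51, limma adjusted p = 0.00014). Loci of such repeated families can share fragments, so the values of single members are uncertain.

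Liver had intervals of the same kind, chosen for naming after their values were seen. Of all tested transcripts, 35.8% were higher in liver. At the Glyat interval all 4 tested transcripts were higher in liver, with a median difference of -7.05. At chr8:51311589-51320432, 4 of 5 were higher in liver, led by TCONS_00100986 with 29.1 and 23.7 FPKM in liver and at most 0.0548 FPKM in adrenal gland. At chr7:36932857-36960013, 5 of 8 were higher in liver. There TCONS_00094220 stood at 8.24 and 7.11 FPKM in liver and was listed at 0 in adrenal gland, while TCONS_00094226 stood at 0.624 and 217 FPKM in liver (limma adjusted p = 0.04). The call of the latter was lost under 8 alternatives, without either adrenal column among them, with adjusted p from 0.056 to 0.18. At chr10:81661970-81676304, 6 of 8 were higher in liver and the remaining 2 passed in neither direction.

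At 2 loci, isoforms went in opposite directions, of 98 loci with 2 or more tested transcripts. At chr4:232836705-232847880, TCONS_00077053 stood at 1.83 and 1.37 FPKM in liver and 0.0231 and 0.00731 FPKM in adrenal gland (-3.88, SE 0.48, limma adjusted p = 0.00015). Its partner TCONS_00077054 stood at 1.39 and 1.25 FPKM in adrenal gland and at 4.4e-05 and 0 FPKM in liver (3.83, SE 0.49, limma adjusted p = 0.00018). The isoforms are 2771 and 2763 bases long. At chr2:124467212-124551506, TCONS_00059277 stood at 1.75 and 1.96 FPKM in liver and was listed at 0 in adrenal gland (limma adjusted p = 0.032). TCONS_00059278 stood at 3.05 and 1.97 FPKM in adrenal gland and was listed at 0 in liver (limma adjusted p = 0.0054). The call of TCONS_00059277 was lost without any 1 of the 4 columns, and the number of such loci ranged from 1 to 8 when a column was left out. No source used here says how fragments were divided between isoforms.

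A smaller set was present in both tissues. Of the 721, 156 had a mean of 1 FPKM or more in both, and 28 of these were higher in liver, 19 higher in adrenal gland, 21 similar and 88 neither. Similar means that the 95% interval of the difference lay within 2-fold in either direction. The 21 were 13.5% of the 156, and the median difference over the 156 was 0.05.

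The means of the 21 similar transcripts ran from 1.02 to 49.7 FPKM in liver (median 2.11) and from 1.09 to 49.3 FPKM in adrenal gland (median 2.45). The highest was TCONS_00012470 (chr1:228114561-228137221, 22514 bases, no reference gene), at 40.2 and 59.2 FPKM in liver and 53.8 and 44.7 FPKM in adrenal gland, a difference of 0.01 (interval -0.52 to 0.54). The narrowest interval was that of TCONS_00021906 (chr11:31873796-31877080), which matches a transcript of ENSRNOG00000047539. It stood at 21.2 and 18.3 FPKM in liver and 22 and 17.4 FPKM in adrenal gland (-0.01, interval -0.43 to 0.41). TCONS_00067294 on chromosome 3 stood at 9.92 and 6.75 FPKM in liver and at 10.0 and 8.29 FPKM in adrenal gland (0.15, interval -0.37 to 0.68). All of these were found in the other 4 tissues too, with lowest means of 10.7, 10.3 and 8.99 FPKM.

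Some similar transcripts lay at named genes. They included transcripts at Zfp142 and Zfp84 (zinc finger genes), Chd2 (a chromatin remodeller), Rbpj (the DNA-binding partner of Notch) and Fhit. The transcript at Zfp142, TCONS_00109843, stood at 4.15 and 2.42 FPKM in liver and 4.04 and 3.57 FPKM in adrenal gland (0.25, interval -0.44 to 0.94). Without liver column 1 it was higher in adrenal gland (0.63, limma adjusted p = 0.045). The transcript at Fhit, TCONS_00035940, stood at 1.26 and 1.17 FPKM in liver and 1.39 and 1.03 FPKM in adrenal gland (-0.02, interval -0.65 to 0.61). The width of an interval depends on the spread assumed. With the liver and adrenal columns alone, 3 transcripts met the rule, and only 2 of the 21 were among them. With 1 added in place of 0.1, 51 did, all 21 among them.

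**Figure D4:**
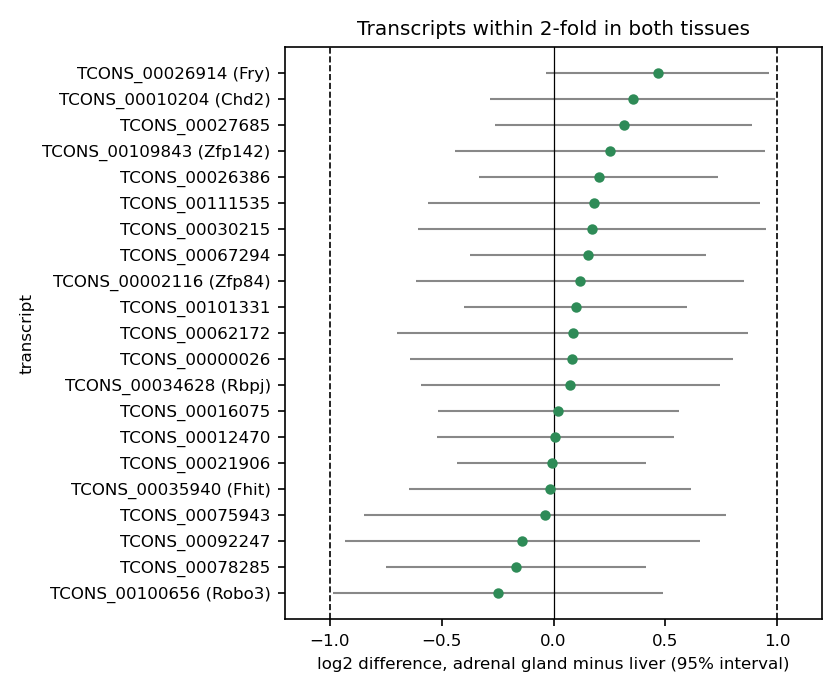
Log2 difference, adrenal gland minus liver, with its 95% interval from limma for the 21 similar transcripts; dashed lines mark 2-fold in either direction. All 21 intervals lie within the dashed lines by the rule, and the differences run from -0.25 to 0.46.

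Among transcripts present in both tissues that did differ, the differences were smaller, with medians of -1.92 for the 28 higher in liver and 2.09 for the 19 higher in adrenal gland. Transcripts of very high level were in this group. TCONS_00015674 (chr10:58888597-58890286, 267 bases, overlapping ENSRNOG00000047167) stood at 1587 and 555 FPKM in liver and 293 and 220 FPKM in adrenal gland (-1.89, SE 0.45, limma adjusted p = 0.0055). Its call was lost when the 4 columns were fitted alone and without adrenal column 2 and hypothalamus column 1. TCONS_00012467 (chr1:228080092-228091758, 11142 bases, no reference gene) stood at 607 and 525 FPKM in liver and 1231 and 916 FPKM in adrenal gland (0.91, SE 0.21, limma adjusted p = 0.0046).

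The named genes of this group, chosen after their values were seen, were of varied function. A transcript at Nrep (TCONS_00049656) stood at 38.2 and 72.8 FPKM in liver and at 3.5 and 2.70 FPKM in adrenal gland (-4.06, SE 0.31, limma adjusted p = 1.4e-05). A very long transcript of 27361 bases at Ctif, a factor of translation initiation, stood at 7.65 and 5.94 FPKM in liver and 1.68 and 1.46 FPKM in adrenal gland (TCONS_00050643, -2.04, SE 0.25, limma adjusted p = 0.00013). A transcript at IL15, a cytokine gene, was at 2.96 and 1.86 FPKM in liver and 1.30 and 0.907 FPKM in adrenal gland (TCONS_00052695, -1.05, SE 0.33, limma adjusted p = 0.021). This call was lost without liver column 1 (adjusted p = 0.075), without adrenal column 2 (0.096) and with the 4 columns alone (0.12). Higher in adrenal gland were transcripts at Bid, a gene of apoptosis, at Eif4b, another translation factor, and at Hnrnpa1, an RNA-binding protein. The one at Bid (TCONS_00079972) stood at 5.90 and 5.49 FPKM in adrenal gland and 1.68 and 0.957 FPKM in liver (2.08, SE 0.35, limma adjusted p = 0.00083). The one antisense to Eif4b (TCONS_00099772) stood at 6.11 and 4.50 FPKM in adrenal gland and 2.40 and 1.95 FPKM in liver (1.24, SE 0.22, limma adjusted p = 0.0011), a call lost with the 4 columns alone (adjusted p = 0.067). The one at Hnrnpa1 (TCONS_00096371) stood at 5.75 and 4.16 FPKM in adrenal gland and 1.68 and 1.67 FPKM in liver (1.49, SE 0.28, limma adjusted p = 0.0017).

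No transcript passed the test for being particular to the pair. Of the 156 present in both, 0 (0%) were higher in liver and in adrenal gland than in each of the other 4 tissues by limma with adjustment over the 156. In 42 all 8 differences were above 0, 5 had an unadjusted p under 0.05 for all 8, and the smallest adjusted p was 0.752. The transcript with the smallest p, TCONS_00113916 (chrX:112043746-112045820, 2012 bases, no reference gene), stood at 2.34 and 1.10 FPKM in liver and 6.03 and 5.06 FPKM in adrenal gland. No other column of it was above 0.523 FPKM. Next was TCONS_00040312, at Psd3, at 8.48 and 5.53 FPKM in liver and 11.2 and 7.08 FPKM in adrenal gland, against 0.613 to 3.32 FPKM elsewhere. TCONS_00056409 stood at 21.8 and 19.3 FPKM in liver and 13.1 and 13.9 FPKM in adrenal gland, against 1.24 to 6.48 FPKM elsewhere. These 3 are named after their values were seen, and lying above every column of the other tissues does not set them apart. Others of the 156 did so too, such as TCONS_00057724 (42.7 FPKM or more, against 31.7 FPKM or less elsewhere). Further cases were TCONS_00012470 (40.2 FPKM or more, against 34.3 FPKM or less) and TCONS_00021906 (17.4 FPKM or more, against 15.2 FPKM or less). How many did so was not counted. Without liver column 1, 2 transcripts passed, TCONS_00055258 and TCONS_00092968, whose liver column 2 was at 89.5 and 129 FPKM and column 1 at 1.98 and 23.1 FPKM. Between liver and adrenal gland, both were higher in liver without liver column 1 and higher in adrenal gland without liver column 2.

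In the other direction, 0 of 68 transcripts (0%) were lower in both tissues than in each of the other 4 by limma, and 0 had an unadjusted p under 0.05. Without the hypothalamus columns, an alternative chosen after seeing the data, 2 transcripts were lower in both than in cortex, outer medulla and left ventricle, TCONS_00059547 and TCONS_00050239. The former stood at 0.140 and 0.183 FPKM in liver and 0.325 and 0.121 FPKM in adrenal gland, against 1.22 to 5.05 FPKM in those 3 tissues. The hypothalamus columns left out were lower still, at 0.0628 and 0.0563 FPKM for TCONS_00059547 and 0.139 and 0.118 FPKM for TCONS_00050239. The low level was thus shared with hypothalamus, and neither transcript was among the 68.

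The outcome is given by the relation of a transcript to a reference gene, as a description with no test. Of 497 tested transcripts with no reference gene, 41.0% were higher in liver and 28.8% in adrenal gland, and of 54 antisense to an exon, 42.6% and 25.9%. In those with another exon overlap (79) the shares were 20.3% and 40.5%, and in those sharing a splice junction (57) 17.5% and 31.6%. Of the 34 that match a reference transcript, 14.7% and 8.8% were, and 38.2% of them were present in both tissues against 16.7% of those with no reference gene. The share present in both was 47.4% with a shared splice junction, 30.4% with another exon overlap and 16.7% in antisense transcripts. Among the 23 antisense transcripts higher in liver were those at Masp1, a protease of the complement system, and Acad11, an acyl-CoA dehydrogenase gene, chosen after their values were seen. The one at Masp1 (TCONS_00022825) stood at 5.03 and 3.01 FPKM in liver and 0 and 0.00961 FPKM in adrenal gland. The one at Acad11 (TCONS_00105471) stood at 3.03 and 1.76 FPKM in liver and was listed at 0 in adrenal gland.

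**Figure D5:**
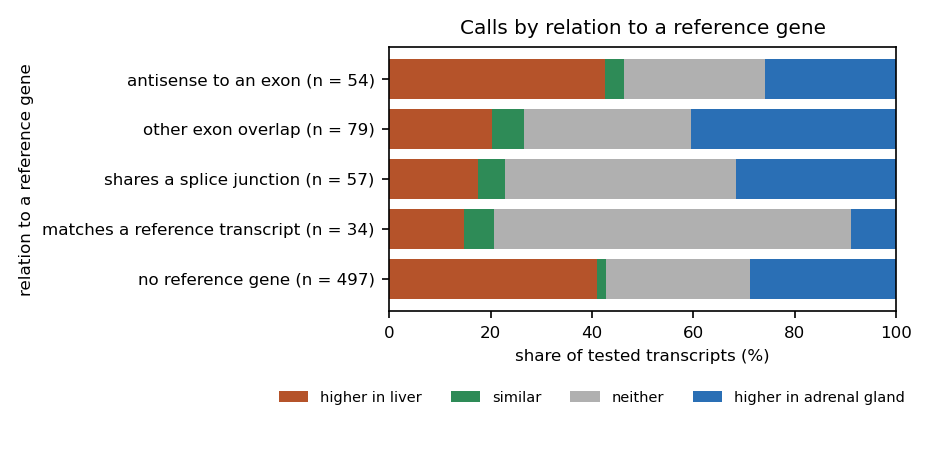
Share of tested transcripts (x axis, %) by outcome for each relation to a reference gene (y axis, with the number tested). The share higher in liver was 41.0% with no reference gene and 42.6% in antisense transcripts, and the share higher in adrenal gland was 40.5% with another exon overlap.

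Some large differences in mean gave no call, and in these the liver columns stood far apart. TCONS_00048236 (chr18:28103994-28139181, 226 bases) stood at 1.05 and 1575 FPKM in liver and 0.875 and 1.24 FPKM in adrenal gland (limma adjusted p = 0.16). A transcript at Lypla1, a gene of a lysophospholipase (TCONS_00084447), stood at 1.55 and 106 FPKM in liver and 1.55 and 3.14 FPKM in adrenal gland (limma adjusted p = 0.27). A transcript at Pdcd10 (TCONS_00060249) stood at 0.950 and 101 FPKM in liver and 0.851 and 0.953 FPKM in adrenal gland (limma adjusted p = 0.11). In all 3, liver column 1 was within the range of the 10 columns of the other tissues and column 2 was far above it. Without liver column 1 all 3 passed as higher in liver, with limma adjusted p of 0.0042, 0.017 and 6.5e-05. Of the 100 transcripts whose liver columns differed by 4-fold or more, 28 were called higher in liver and 67 were not called.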

How the data were processed

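RNA of 6 tissues was measured, 1 labelled sample each. TRIzol was used to extract total RNA and the TruSeq Stranded RNA LT kit to prepare libraries, per the labels' protocols. The submitters' processing notes name the build rn5 and bcl2fastq 2.15.0. The authors' deposited table gives FPKM for transcripts that they listed as lncRNAs. Not given in the sources used here are the aligner, the quantifier, the strand setting and how lncRNAs were selected. Class codes relate transcripts to reference genes, per the file headers. Of 2458 transcripts, 3 without values were left out. Transcript length in bases is another deposited value of the authors, and coordinates are those of the table on rn5. No genome of that build was used. RefSeq tables on GRCr8 gave sequences only, matched by symbol or microRNA name (promoters were found for 82 of 124 gene symbols among tested transcripts).

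FPKM are not counts. Depth was read from the steps of low values, with an assumed mean fragment of 140 bases, and 85.2 to 92.9% of the values used in the 4 columns were no more than 0.15 from a whole fragment number. This is an estimate, and no count test was run. limma 3.58.1 with a mean-variance trend was run in R 4.3.3 on log2(FPKM + 0.1) over all 12 columns, fitting a mean per tissue, for transcripts with a mean of 1 FPKM or more in liver or adrenal gland. Differences are on that scale and understate changes of low transcripts. Benjamini-Hochberg adjustment covered all transcripts tested, at 0.05. A transcript was particular to the pair when all 8 contrasts with other tissues had the same sign and the largest of the 8 p-values passed after adjustment.

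On simulated data with 720 transcripts for this comparison, the test recovered 27.3% of changes of 2-fold, 67.2% of those of 4-fold and 88.1% of those of 8-fold. It made 135 calls, and 13 (9.6%) were on unchanged transcripts, a larger share than the cut-off for the adjusted p aims at. Among those at the minimum in both tissues, 140 of 504 unchanged transcripts and 2 of 62 with a 2-fold change were called similar. The simulated levels differed from the data. The minimum was reached in both tissues by 504 of 520 unchanged transcripts and by 62 of 66 with a 2-fold change. It was also reached by 58 of 67 with a 4-fold and 27 of 67 with an 8-fold change. In the data 156 of 721 tested transcripts reached it in both. These shares therefore do not give the performance for transcripts under the minimum in either tissue.

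Members, gene lists and tests were chosen with earlier results of these data known. Named transcripts followed a rule: the 8 largest differences in each direction, 1 per locus, the 3 most abundant of each tissue, the 6 most abundant similar ones, loci with opposite isoforms, the 3 largest differences in mean FPKM that did not pass, and all tested members of the lists. A further 19 transcripts were named after their values were seen. Alternatives were other pseudocounts and minimums, rescaled columns, a replicate block, the 4 columns alone, sums per locus, rules of size and each column left out. Leaving out adrenal gland column 2 with hypothalamus column 1, or both hypothalamus columns, was planned for transcripts higher in both tissues than elsewhere and added after seeing the data for the other results.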

Additional observations from a re-analysis of the deposited data

How the results depend on the processing

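The count of transcripts that differed, 468, was 436 with a pseudocount of 0.01 (434 of them among the 468), 487 with 1 (462), 462 with rescaled columns (451), 298 of 409 tested at a minimum of 2 FPKM (296) and 627 of 2201 tested with no minimum (433). With no minimum 283 were higher in liver and 344 in adrenal gland, the other way round from 258 and 210. The count was 388 with the 4 columns alone, 409 summed by locus, 324 by a 5-fold rule of size, and 418 to 499 with a column left out. With a replicate block for the column number it was 470 (259 higher in liver, 211 in adrenal gland), 460 of them shared. The deviations of same-numbered liver and adrenal columns correlated at 0.014 over 1269 transcripts. Whether same-numbered columns share an animal or a run cannot be told from this value. No call among the 468 had the opposite sign under the alternatives fitted per transcript (sums per locus and the rule of size were not compared). Similar transcripts, 21, became 51 with a pseudocount of 1, 9 at a minimum of 2 FPKM, 100 with no minimum, 71 by a ratio of means within 1.5-fold, and 15 to 27 with a column left out. Transcripts higher in both tissues than in each other tissue numbered 0 to 2 with a column left out, and transcripts lower in both 2 without both hypothalamus columns. Loci with opposite isoforms, 2, became 0 at a minimum of 2 FPKM, 4 with no minimum, 1 without adrenal gland column 2 and hypothalamus column 1, and 1 to 8 with a column left out. Transcripts detected in both, 310, became 759 at 0.1 FPKM, 156 at 1 FPKM, 1488 above 0, 191 in both columns, and 270 to 318 with a column left out. Fewer or more transcripts tested enter the changes of minimum, and for the rest the cause was not tested. Of 33 transcripts named by the rule with a call, 4 lost it under some alternative, and of 17 without one, 9 gained it. Of 14 further called transcripts, 4 lost the call. Low values of liver column 2, the shallowest column, are the least precise.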
